A study of Rattus norvegicus with 2 samples.

Results

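The miRNAs described here are 5 hairpins known for their expression in the vessel wall, mir-143, mir-145, mir-126a, mir-221 and mir-222. They were chosen by name, as the unmarked rows of the 2 count tables that carry these names, and they make up 5 of 193 unmarked miRNA rows. No row marked with an asterisk carries any of the 5 names. The study sequenced small RNA of the rat left ventricle, from Wistar animals aged 16 weeks. The swim library came from rats that swam in 2 sessions of 90 minutes a day for 8 weeks, a training model in which the heart grows physiologically. The control library came from Wistar rats of the same age, for which the labels name no training. Each group was 1 library, and the number and sex of the animals behind it were not stated in the labels.

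Hairpins of this kind are cut into short mature miRNAs that guide the silencing complex to messenger RNAs, mainly through the seed, bases 2 to 8 of the mature strand. mir-143 and mir-145 are processed from a common transcript in vascular smooth muscle, where they favour the contractile state and repress factors such as Klf4, Klf5 and Elk1. mir-126a lies in the endothelial gene Egfl7 and supports signalling by vascular endothelial growth factor by repressing Spred1 and Pik3r2. mir-221 and mir-222 are clustered, repress the receptor Kit in endothelium and the cell cycle inhibitor Cdkn1b in smooth muscle, and are known for promoting smooth muscle growth after injury.

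The mature strands that carry the known activity of each hairpin are shown first, because the seeds decide which of the 5 can be read as a family. The sequences are from RefSeq (rat build GRCr8), 5′ to 3′, with the seed in capitals. Each deposited row is named for a hairpin, so which strand the counts came from cannot be told.
miR-143-3p: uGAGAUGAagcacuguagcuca
miR-145-5p: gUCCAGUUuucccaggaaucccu
miR-126a-3p: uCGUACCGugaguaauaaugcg
miR-126a-5p: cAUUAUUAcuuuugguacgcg
miR-221-3p: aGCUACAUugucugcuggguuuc
miR-222-3p: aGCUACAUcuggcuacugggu

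Only miR-221-3p and miR-222-3p shared a seed, and neither had a further rat miRNA of the same seed in the table of mature sequences. Their first 8 bases, AGCUACAU, were the same, and 11 of the 21 positions compared without gaps were identical. With gaps 18 columns of a 24-column alignment matched, and the differences lie in the 3′ part. For the other 4 strands shown, no other mature rat sequence of that table had the same seed. RefSeq gives the symbol Mir126b to the gene that carries both miR-126a strands, and Mir126a to the hairpin of miR-126b on the opposite strand. The match used here was by the name of the mature strand, and the deposited tables had no row for mir-126b.

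The 4 hairpins found in the RefSeq table are shown with both mature strands in capitals, the 5p strand first. They are printed because the deposited rows are named for hairpins, and whether a row sums both strands is not stated. In GRCr8, mir-143 is at chr18:57371349-57371453 and mir-145 at chr18:57369983-57370070, both on the minus strand, with 1278 bases between them. The pair lies within the span of the long noncoding RNA gene Carmn. mir-221 is at chrX:6023182-6023290 and mir-222 at chrX:6022621-6022723, both on the plus strand, with 458 bases between them and within the spans of a pair of unnamed long noncoding RNA genes. The strands of miR-126a lie on the plus strand of chr3, within the span of Egfl7. The counts were not made on this build.
mir-143: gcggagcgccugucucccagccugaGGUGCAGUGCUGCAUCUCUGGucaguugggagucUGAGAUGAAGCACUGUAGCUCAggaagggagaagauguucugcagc
mir-145: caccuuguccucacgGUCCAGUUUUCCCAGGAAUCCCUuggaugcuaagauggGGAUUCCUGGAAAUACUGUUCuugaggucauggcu
mir-221: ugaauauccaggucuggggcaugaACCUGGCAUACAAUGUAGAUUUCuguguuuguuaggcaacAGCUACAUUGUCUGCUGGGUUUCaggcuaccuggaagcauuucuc
mir-222: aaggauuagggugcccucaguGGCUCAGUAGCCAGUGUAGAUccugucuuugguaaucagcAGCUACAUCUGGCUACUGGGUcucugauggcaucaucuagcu

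The tables summed to 3219939 counts over the unmarked miRNA rows in swim and 2460845 in control. Levels are counts scaled to a total of 1e6 (CPM), and a ratio is swim CPM over control CPM with an exact conditional binomial 95% interval. Intervals cover counting error only, and reads copied by PCR are not independent molecules. With 1 library per group the spread between animals is unknown, so no test between groups was possible and no p-value is given. A call of higher or lower rests on size, a log2 ratio of at least 1 in size (2-fold) with an interval that excluded 1. Of 173 entries tested, 3.47% were called higher and 32.9% lower. The deposited table stands in 2 ordered parts, a first part of abundant entries with a median ratio of 1.06 and a second part of low-count entries with a median ratio of 0.458. The higher of the 2 counts of an entry was at least 838 in the first part and at most 795 in the second. An entry raised in 1 library can thus stand in the first part through that library alone. The part is therefore not independent of the ratio, which limits every value set against the own part. All 6 miRNAs known from heart muscle that were looked for were listed, from mir-133a at 72772 CPM in swim and 61888 CPM in control to mir-208a at 648 CPM in swim and 721 CPM in control. mir-1, used as a base below, stood far under mir-133a, at 820 CPM in swim and 1313 CPM in control. The check was of presence only, not of whether these levels are usual for the tissue.

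In both libraries the 5 vascular entries stood in the same order of level, mir-143, mir-126a, mir-145, mir-221 and mir-222, and no counting intervals of neighbours in that order overlapped. Together they held 22.6% of the miRNA counts in swim (95% exact binomial interval 22.5 to 22.6%) and 23.8% in control (23.7 to 23.8%). Most of this was mir-143. The order is of counts per hairpin, and mature strands of different sequence can differ in how readily they enter a library, so it was not read as an order of molecules.

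**Figure D1:**
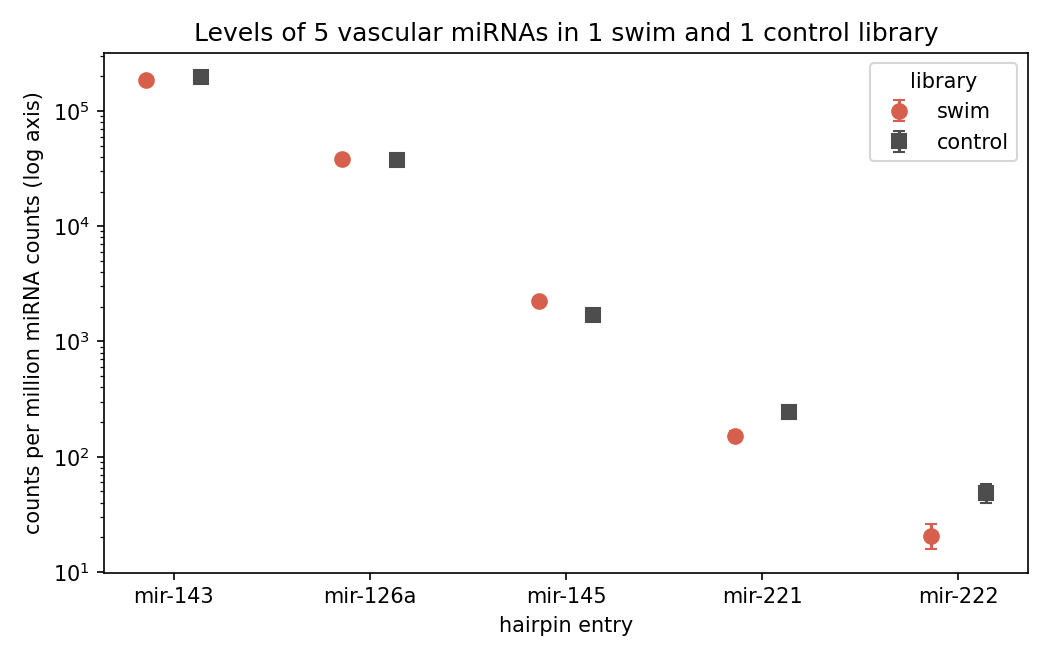
Level of each of the 5 vascular miRNAs in CPM (log axis), in the swim library (circles) and the control library (squares), with exact binomial 95% intervals that are mostly smaller than the symbols. The levels run from 185342 CPM in swim and 197979 CPM in control for mir-143 to 20.5 CPM in swim and 48.4 CPM in control for mir-222.

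Among the smooth muscle miRNAs, the abundant mir-143 differed little between the libraries while its cluster partner mir-145 was somewhat higher in swim. mir-143 had 596790 counts in swim and 487196 in control, which is 185342 CPM in swim and 197979 CPM in control. It was the most abundant entry of each library. Its ratio was 0.936 (0.933 to 0.940), which turns to 1.14 with TMM factors, 1.22 with unscaled counts and 1.31 with median-of-ratios factors. Its direction between the libraries therefore rests on the scaling.

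mir-145 had 7268 counts in swim and 4215 in control. Its level was 2257 CPM in swim and 1713 CPM in control, and the swim level was the higher under each of the 7 scalings tried. The ratio was 1.32 (1.27 to 1.37), short of the 2-fold rule here and under each other scaling. It was above the ratios of 56 of the other 74 first-part entries, and mir-143 was above those of 26. By count mir-145 was the 35th entry of the swim library and the 41st of the control library.

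The balance within the pair can be read without any scaling. In swim mir-143 had 82.1 counts for each count of mir-145, and in control it had 116. The mir-145 to mir-143 ratio was thus 1.41 times as high in swim as in control (95% interval 1.35 to 1.46 from the log odds ratio, counting error only). The change exceeds counting error, and how far such a ratio varies between animals is not known from 1 library per group.

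The endothelial miRNA mir-126a had almost the same level in both libraries. It was counted 122317 times in swim and 92338 times in control, or 37987 CPM in swim and 37523 CPM in control. It ranked 7th in swim and 8th in control. The ratio was 1.01 (1.00 to 1.02). It was 1.41 under median-of-ratios factors, 1.23 under TMM factors and 1.32 for unscaled counts, and below 1 when mir-143 was left out of the totals (0.997), the row that names no miRNA was added to them (0.936) or the median of its part was the base (0.951). No scaling made mir-126a a call.

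Relative to mir-126a, the smooth muscle entries went apart. The count of mir-143 was 4.88 times that of mir-126a in swim and 5.28 times in control, a change of 0.925 (0.916 to 0.933). For mir-145 the count was 0.0594 times that of mir-126a in swim and 0.0456 times in control, a change of 1.30 (1.25 to 1.35). Both changes exceed counting error, and neither reaches 2-fold. In these bulk samples fewer cells of a type and less RNA per cell cannot be told apart.

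Read against heart muscle, the answer depended on which muscle miRNA served as the base, because the 6 muscle entries themselves went apart. Their own ratios were 2.64 for mir-208b, the only one called, 1.95 for mir-133b, 1.19 for mir-499, 1.18 for mir-133a, 0.899 for mir-208a and 0.624 for mir-1. Against mir-133a, the most abundant of them, mir-143 changed by 0.796 and mir-126a by 0.861, and mir-145 by 1.12. Against mir-208a the changes were 1.04 (0.978 to 1.11) for mir-143, 1.13 (1.06 to 1.20) for mir-126a and 1.47 (1.36 to 1.58) for mir-145. Against mir-1 all 3 were above 1, at 1.5 for mir-143, 1.62 for mir-126a and 2.11 for mir-145.

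The remaining muscle bases gave values below 1 for mir-143 and mir-126a. Against mir-499 the change was 0.788 for mir-143, 0.852 for mir-126a and 1.11 for mir-145. With mir-133b as the base it was 0.479 for mir-143, 0.518 for mir-126a and 0.674 for mir-145, and with mir-208b it was 0.354, 0.383 and 0.498 in that order. No single direction relative to heart muscle can therefore be given for these 3 miRNAs. The summed count of the 6 muscle entries, 288328 in swim and 174412 in control, came mostly from mir-133a. For each count of this sum mir-143 had 2.07 counts in swim and 2.79 in control, and mir-126a had 0.424 in swim and 0.529 in control. mir-145 went the other way, with 0.0252 in swim and 0.0242 in control, a change of 1.04 (1.00 to 1.08). Against the same sum mir-221 changed by 0.495 and mir-222 by 0.335.

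The mir-221 and mir-222 pair was scarce and had a lower share of the swim library than of the control library. mir-221 had 490 counts in swim and 599 in control, or 152 CPM in swim and 243 CPM in control. Its ratio was 0.625 (0.554 to 0.706), which is not a call. The ratio stayed below 1 under the other scalings by library (0.578 to 0.873). Set against the median of its own part of the table it was 1.36 (1.21 to 1.54), on the other side of 1.

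mir-222 had 66 counts in swim and 119 in control. Its level was 20.5 CPM in swim and 48.4 CPM in control, the lowest of the 5 in both libraries. The ratio was 0.424 (0.309 to 0.577), and mir-222 was the only one of the 5 called, as lower, beside 32.9% of all entries tested and 57.1% of the 98 tested in the second part. The call was lost with TMM factors (0.516), where 19.1% of all entries were called lower, with unscaled counts (0.555, 17.3%) and with median-of-ratios factors (0.592, 15.6%). Set against the median of its part the ratio was 0.925 (0.674 to 1.26), an interval that includes 1, and 6.36% of all entries were then called lower.

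The ratios of this pair lay within the range of other low-count entries. Of the other 97 second-part entries, 73 had a lower ratio than mir-221 and 40 a lower ratio than mir-222. Near mir-222 in the order of control counts, mir-203a (120 counts) had a ratio of 0.420 (0.306 to 0.572). mir-365 (113 counts) had one of 0.595 (0.445 to 0.793), and mir-1249 (107 counts) one of 0.457 (0.330 to 0.629). Each of these intervals overlaps that of mir-222. Low counts and low ratios went together over the table, and the part of this in the values of mir-221 and mir-222 was not tested.

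Within the pair, mir-222 had 0.135 counts for each count of mir-221 in swim and 0.199 in control. The change was 0.678 (0.491 to 0.937), which no scaling can alter and whose interval, on 66 and 119 counts of mir-222, comes close to 1. Put the other way, mir-221 had 7.42 counts for each count of mir-222 in swim and 5.03 in control. Added up over the shared seed, the pair had 556 counts in swim and 718 in control, a ratio of 0.592 (0.529 to 0.662), and most of these counts were of mir-221 in both libraries. Relative to mir-126a the change was 0.618 (0.548 to 0.696) for mir-221 and 0.419 (0.310 to 0.566) for mir-222.

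**Figure D2:**
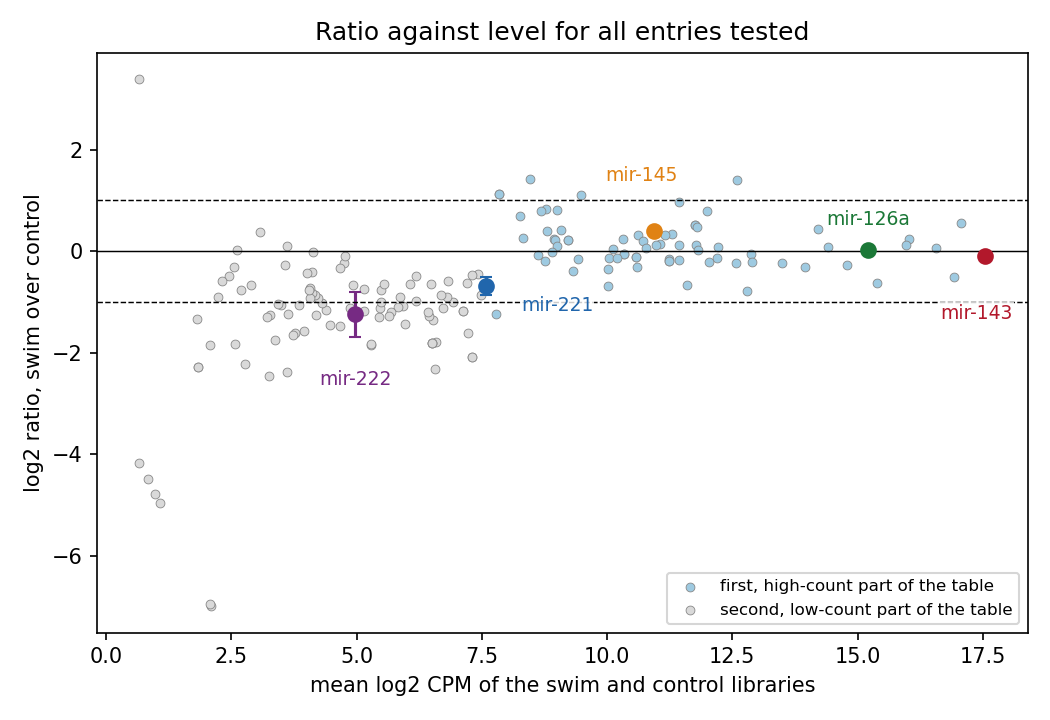
Log2 ratio of swim over control (vertical axis) against the mean log2 CPM of both libraries (horizontal axis) for the 173 entries tested, with the 5 vascular entries in colour and their 95% counting intervals. mir-143, mir-126a and mir-145 lie among the high-count entries around 0, while mir-221 and mir-222 lie among the low-count entries, most of which are below 0. Dashed lines mark the 2-fold rule.

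The pattern of each miRNA over the 2 libraries was set beside those of all other entries by the distance in log2 CPM, a description over 2 points. Nearest to mir-143 were mir-30a, at a distance of 0.82, and mir-22, at 0.93, so no entry was close to it. Nearest to mir-126a were mir-191a (0.52) and mir-27b (0.61), whose ratios of 0.645 and 0.828 lay below that of mir-126a. mir-145 was nearest to mir-30b (0.20) and mir-92a-1 (0.25), with ratios of 1.09 and 1.10.

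For mir-221 the nearest entries were mir-92a-2 (0.19) and mir-320 (0.30), with ratios of 0.550 and 0.735. mir-222 was nearest to mir-203a (0.01) and mir-1249 (0.16), with ratios of 0.420 and 0.457. Entries near in both levels have a like ratio by construction. In the order of counts, mir-145 stood in swim between mir-99a (7334 counts) and mir-24-1 (7259), and in control below mir-23b (4227), with overlapping counting intervals. Below it in control came mir-125b-1 (3898), whose interval did not overlap. mir-126a stood in swim between mir-26a (213606) and mir-191a (110129), and in control between mir-191a (130585) and mir-27b (77043), beyond counting error on both sides. The entries on either side of mir-221 were mir-19b-2 (1101) and mir-320 (471) in swim and mir-423 (642) and mir-92a-2 (598) in control, and only mir-19b-2 was apart beyond counting error. The neighbours of mir-222, mir-203a in both libraries, mir-1249 (64) in swim and mir-365 (113) in control, were within counting error of it.

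Other neighbouring hairpins served as a yardstick for the changes within the pairs. Among 138 single-copy entries tested, all of which were found in RefSeq, 29 pairs of next neighbours lay at most 10000 bases apart. Of these, 15 had both members in the same part of the table and no count of 1. Among the 7 first-part pairs, the mir-145 to mir-143 change of 1.41 was the 2nd largest in size, behind mir-1 over mir-133a at 0.531 and beside mir-125a over mir-99b at 1.39. For 6 of these 7 pairs the counting interval excluded 1, and their median change in size was 1.29-fold. The change of mir-222 over mir-221, 1.47-fold in size, was the 3rd largest of 8 second-part pairs, whose median was 1.43-fold. For only 2 of these 8 pairs, mir-222 over mir-221 among them, did the counting interval exclude 1. The largest of the 8, mir-188 over mir-362 at 2.63 (0.957 to 7.20), rests on few counts. The second-part yardstick is therefore mostly within counting error. Neither vascular pair stood outside the range of the other pairs of its part in size. With direction kept, as the rarer over the more abundant hairpin, each was at an end of the pairs kept for its part. mir-145 over mir-143 was the highest of the first-part changes (0.531 to 1.41). mir-222 over mir-221 was the lowest of the 8 second-part changes kept (0.678 to 2.63), beside mir-136 over mir-434 at 0.679. Of the second-part pairs left out for a count of 1, mir-18a over mir-19a (0.104) and mir-201 over mir-3585 (0.0082) were lower. The other, mir-547 over mir-201, was higher at 87.5. Over all 29 pairs, mir-222 over mir-221 was 14th in size and mir-145 over mir-143 was 17th, beside a median of 1.47-fold. Some hairpins enter 2 pairs, and this set of pairs was put together after the values had been seen.

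**Figure D3:**
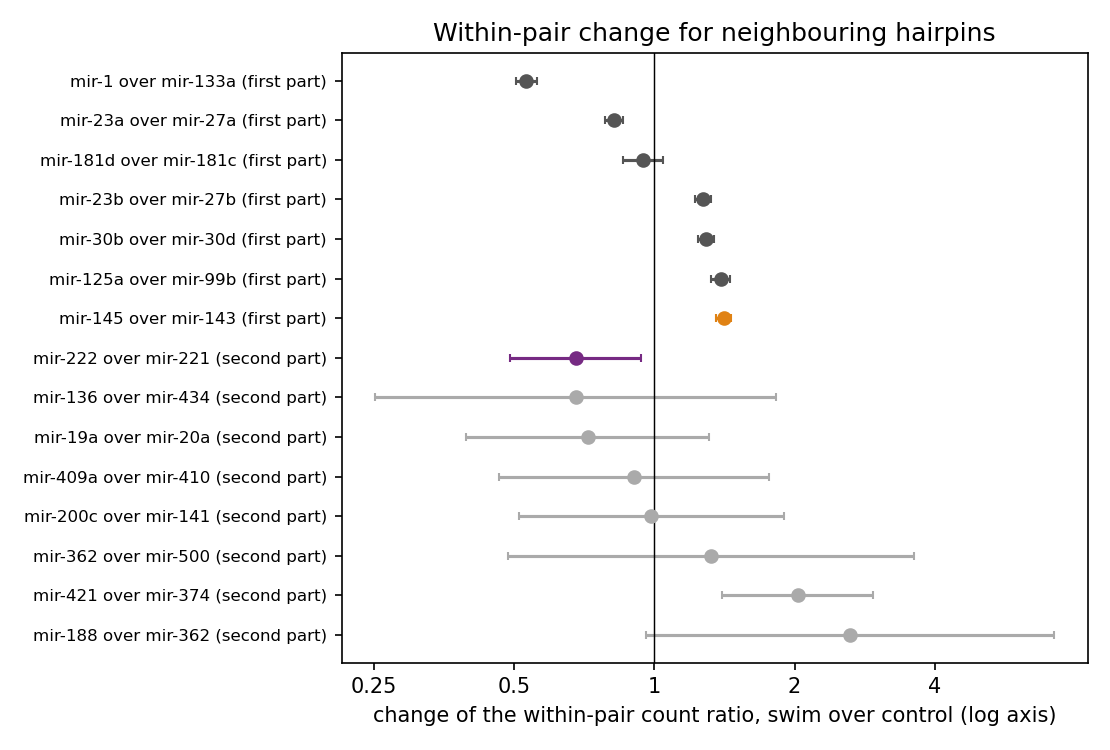
Change, swim over control, of the count ratio of the rarer to the more abundant hairpin (log axis) in 15 pairs of neighbouring hairpins of the same part of the table, with 95% counting intervals. The mir-145 to mir-143 pair (orange) stands at 1.41, the highest value of the first part. The mir-222 to mir-221 pair (purple) stands at 0.678, the lowest second-part value drawn. Pairs with a count of 1 are not drawn. In size both lie within the spread of the other pairs.

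Other miRNAs with published roles in vessels are given by counts only. Of the 17 smooth muscle entries besides the 5, 1 was called higher, mir-204 at a ratio of 2.70, and 3 lower, both copies of mir-29b, which represses collagen and elastin transcripts, and mir-31a. That is 5.88% higher and 17.6% lower, beside 3.47% and 32.9% of all entries tested. All 3 lower calls stood in the second part, where 57.1% of entries were lower. With the median of its own part as the base none of the 17 was lower and mir-204 alone was higher. mir-204, with 1876 counts in swim and 531 in control, stands in the first part through its swim count alone. The 13 first-part entries had a median log2 ratio of 0.09, the same as the 0.09 of all first-part entries, and the 4 second-part entries one of -1.82, beside -1.12. Over all 17 the median was -0.11, beside -0.59 over all entries tested, a gap that goes with how many entries of each part the list holds. The 4 most abundant, mir-133a at 1.18, mir-26a at 1.08, mir-21 at 0.866 and mir-146a at 1.07, gave no call.

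Of the 24 tested entries tied to endothelium and vessel growth, 2 were called higher and 6 lower. That is 8.33% higher and 25% lower, beside 3.47% and 32.9% of all entries tested. Both copies of mir-19b were higher. Lower were mir-210, a miRNA induced by low oxygen, mir-34a, a target of p53, both copies of mir-17, mir-20a and mir-18a. These 6 all stood in the second part, and with the own part as the base 1 of the 24 was lower, mir-18a, listed at 1 count in swim. On that base 3 were higher, both mir-19b copies and mir-132, beside 6.36% of all entries in each direction. The mir-19b copies, with 1101 counts in swim and 384 in control, also stand in the first part through swim alone. The median log2 ratio was 0.07 for the 13 first-part entries and -1.12 for the 11 in the second part, both close to the medians of their parts. The 4 most abundant of them had ratios of 1.05 (mir-10a), 0.828 (mir-27b), 1.07 (mir-146a) and 0.628 (mir-100), none of them a call. Copies of a hairpin with equal counts repeat the same value, and mir-24 and mir-146a are in both vascular lists. mir-133a and mir-1, counted in the smooth muscle list, are also heart muscle entries above, and in this tissue their counts cannot be assigned to vessels. Of the blood cell entries, mir-144 of red cells had 80 counts in swim and 72 in control, a ratio of 0.849 (0.610 to 1.18). None of the 3 leukocyte entries listed was a call, at ratios of 0.908 for mir-150, 0.785 for mir-142 and 0.552 for mir-342. mir-451, mir-486 and mir-223 were not listed. Among markers of other cell types, mir-122 of liver, the 3 copies of mir-9a of neurons and mir-214 of fibroblasts were called lower. These calls all stood in the second part, where 57.1% of entries were lower. The call of mir-122 rests on 1 count in swim and 20 in control. The other fibroblast entry, mir-199a in the first part, had a ratio of 1.25 and no call.

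**Figure D4:**
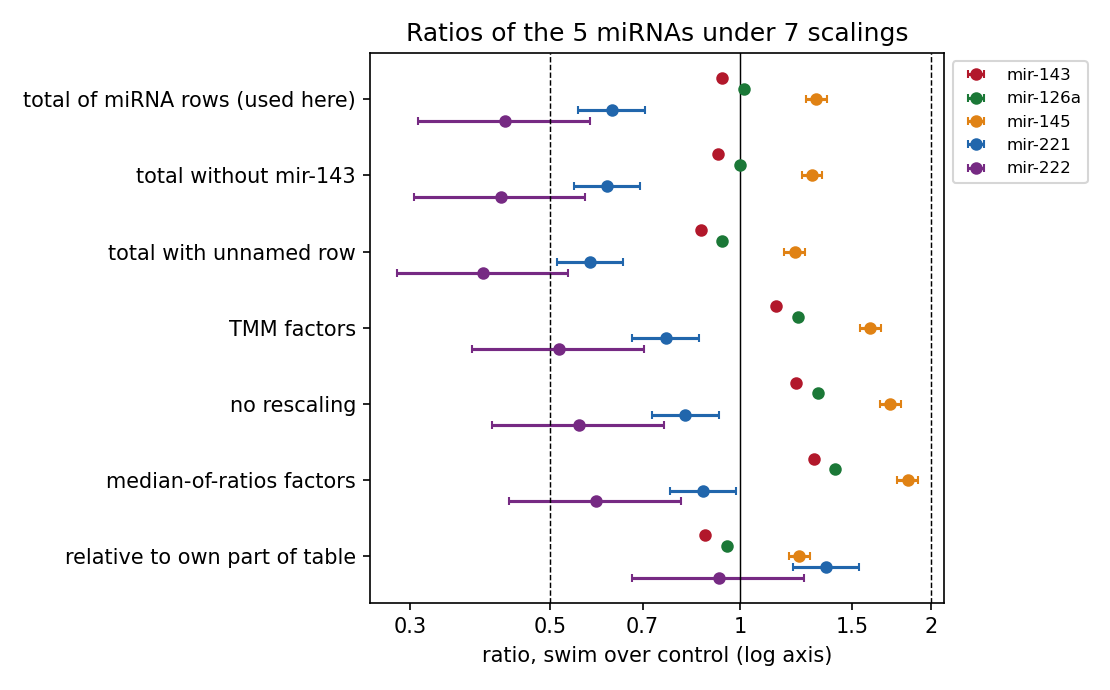
Ratio of swim over control (log axis) of the 5 vascular miRNAs under 7 scalings, with 95% counting intervals. Dashed lines mark the 2-fold rule. mir-145 lies above 1 in each row and mir-222 below 1 in each row, while mir-143, mir-126a and mir-221 change side.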

How the data were processed

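For each library the authors deposited a table of whole-number counts per hairpin name, taken here as unscaled reads. The lowest count of any entry was 1 and the next lowest was 5, in each library. Whether a count of 1 is a read or a floor value is not stated. Entries with such a count were kept in the calls and shares, and none of the 5 vascular entries had one. Bowtie 0.12.2 and the builds rn5 and rn4 are named with no role, per the submitters' processing notes. How adapters were trimmed, how reads matching several hairpins were assigned and which miRNA release served is not given in the sources consulted. Each table had 203 rows. The row that names no miRNA held 12.5% of the swim and 5.41% of the control counts and was left out, as were 9 asterisk rows that repeat others. let-7e, listed in 2 rows with exchanged counts, was kept in the totals only, which left 191 entries. A summed count of 20 or more was required for testing, with a pseudocount of 0.5 in the log2 ratio. Python 3.11.15 with scipy 1.17.1 was used, and edgeR 4.0.16 for TMM factors alone. Mature and hairpin sequences were looked up in RefSeq, where 5 of 5 entries matched by mature name. The ratio rule was tested on simulated counts with counting error only and equal numbers of raised and lowered entries. That simulation held no spread between animals, no PCR copies and no parts of unlike median, so it does not cover those limits. The text names all 5 entries, the 4 most abundant of each vascular list, the 2 entries nearest in level, the neighbours in rank and the muscle markers. The named calls of the lists, the blood cell, liver, neuronal and fibroblast entries and the neighbouring pairs lie outside that rule. The entries and lists were chosen with earlier results of these data known.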

Additional observations from a re-analysis of the deposited data

Results flagged for a closer look

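The row that names no miRNA held 12.5% of all counts in swim, against 5.41% in control. It enters no comparison above except as an alternative total, and what it holds is not stated in the labels.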

How the results depend on the processing

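Each value rests on 1 library per group, so no replicate could be left out. No paired analysis was possible because each group is 1 library. The median log2 ratio of all entries shifted by 0.28 with TMM factors, 0.39 without rescaling, 0.48 with median-of-ratios factors and -0.11 with the unnamed row in the totals. Relative to the median of all entries, which library scaling cannot alter, the ratios were 1.41 for mir-143, 1.98 for mir-145, 1.52 for mir-126a, 0.939 for mir-221 and 0.637 for mir-222. The ratios of mir-143, mir-145, mir-126a and mir-221 were 1.31, 1.84, 1.41 and 0.873 under median-of-ratios factors, with mir-222 at 0.592. In the same order of the first 4 they were 1.14, 1.60, 1.23 and 0.761 under TMM factors and 1.22, 1.72, 1.32 and 0.818 without rescaling. Relative to the own part of the table they were 0.880, 1.24, 0.951 and 1.36, with mir-222 at 0.925. With the unnamed row in the totals mir-143, mir-145 and mir-126a stood at 0.866, 1.22 and 0.936, and without the most abundant entry mir-143 and mir-126a stood at 0.922 and 0.997. The 1 call among the 5 became 0 with TMM factors, no rescaling, median-of-ratios factors, the own part or a 3-fold rule, and 2 under a 1.5-fold rule, which adds mir-221. It stayed at 1 with pseudocounts of 1 and 5, both other filters, the asterisk rows and both altered totals. Over all entries 63 calls (6 higher, 57 lower) became 44 (11 and 33) with TMM factors, 40 (13 and 27) with median-of-ratios factors, 42 (12 and 30) without rescaling, 22 (11 and 11) relative to the own part, 27 under the 3-fold rule and 41 at a summed count of at least 100. Copies with equal counts taken once, a choice made after seeing the data, gave 56. The causes were not tested. mir-222, on 66 and 119 counts, is the value most limited by depth among the 5.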
